A study of Mus musculus with 9 samples.

Results

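Glycolytic genes of the mouse testis were described here through 10 genes out of the 55401 in the count table. They were taken by symbol and not by a limit on a measured value, but earlier results of these data were known when they were chosen. The germ-cell isoforms were Gapdhs, Pgk2, Ldhc, Aldoart1 and Eno4, the somatic partners were Gapdh, Pgk1, Ldha and Aldoa, and Hk1 was the last. All 9 libraries came from testes of male wild-type mice, of the ICR stock by the study's methods, and the age of these mice is not given in the sources used here. The 3 input libraries held poly(A) RNA that met no antibody. The 3 IgG libraries held RNA recovered with a rabbit isotype control antibody, and the 3 acRIP libraries RNA recovered with an antibody against N4-acetylcytidine (ac4C). A β-globin RNA made in vitro with ac4C had been mixed into the poly(A) RNA for the precipitation. No source says whether the 3 libraries of a group came from separate mice, so the p-values below measure the spread between libraries, which may be technical. The comparisons ask which mRNAs the ac4C antibody recovered beyond both controls, and how a sperm isoform fared beside its somatic partner.

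Glycolysis splits glucose into pyruvate in the cytosol and yields ATP, and lactate dehydrogenase then converts pyruvate and lactate into each other. Spermatocytes and spermatids switch on their own isoforms of several of these enzymes, and mature sperm use them in the tail to power movement. Pgk1 lies on the X chromosome, which is silenced during male meiosis, and its autosomal retrogene Pgk2 is then expressed. In RNA of whole testis, fewer cells of a type and less RNA per cell cannot be told apart.

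A read is assigned to an isoform by the bases in which it differs from its partner and from every other place in the genome. For each pair, 60 coding bases are therefore shown from the stretch in which the partners were most alike within one exon (mm10, given 5′ to 3′ along the mRNA, with the differing bases in capitals). The Gapdhs window is chr7:30732204-30732263 (minus strand, exon 8 of 11), and that of Gapdh is chr6:125162565-125162624 (minus strand, exon 5 of 7). Pgk2 is shown at chr17:40208128-40208187 (minus strand, its single exon) and Pgk1 at chrX:106194708-106194767 (plus strand, exon 4 of 11). Ldhc and Ldha stand next to each other on chromosome 7, with windows at chr7:46875726-46875785 and chr7:46851927-46851986 (both plus strand, exon 6 of 8). The Aldoart1 window is chr4:72851961-72852020 (minus strand), and the same 60 bases were found in exon 6 of 10 of Aldoa at chr7:126796691-126796750 (minus strand), so no base is in capitals.
Gapdhs: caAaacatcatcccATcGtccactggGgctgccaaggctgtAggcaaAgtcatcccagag
Gapdh: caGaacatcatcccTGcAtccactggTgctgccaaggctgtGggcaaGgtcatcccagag
Pgk2: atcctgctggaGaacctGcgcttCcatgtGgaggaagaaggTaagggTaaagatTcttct
Pgk1: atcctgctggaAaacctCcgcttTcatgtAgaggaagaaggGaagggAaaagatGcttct
Ldhc: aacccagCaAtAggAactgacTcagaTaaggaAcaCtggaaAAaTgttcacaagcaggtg
Ldha: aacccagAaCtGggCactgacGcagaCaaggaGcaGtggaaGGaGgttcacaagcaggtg
Aldoart1 and Aldoa: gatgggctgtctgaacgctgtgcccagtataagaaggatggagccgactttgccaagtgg

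Even in these windows, Gapdhs and Gapdh differed at 7 of 60 bases, Pgk2 and Pgk1 at 7, and Ldhc and Ldha at 11. Over the aligned coding sequence, identity was 72.0% for Gapdhs and Gapdh, 73.7% for Ldhc and Ldha, 79.3% for Pgk2 and Pgk1, and 94.2% for Aldoart1 and Aldoa. The longest run of identical bases was 20, 20, 22 and 86 bases in that order, shorter than a read in every pair.

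Copies elsewhere in the genome were a different matter, and they divided the somatic genes. The spliced transcript of each gene was cut into all windows of 1 read length, and each window was looked for elsewhere in mm10. For Gapdh, 84.5% of the windows had an identical copy at another place, and for Pgk1 86.3%. The share was 0% for Gapdhs, Pgk2, Ldhc, Ldha, Aldoart1, Aldoa, Eno4 and Hk1. With up to 3 mismatches allowed it rose to 24.1% for Ldha and 1.50% for Aldoa. The authors counted uniquely mapped reads, and a read from such a window has no unique place unless its mate gives one. The counts of these genes are therefore uncertain, and their ratios to Gapdhs and Pgk2 cannot be read as ratios of mRNA. The following Gapdh bases (chr6:125162897-125162956, minus strand, exon 4 of 7) are shown because they occur exactly at 62 other places in the genome.
Gapdh: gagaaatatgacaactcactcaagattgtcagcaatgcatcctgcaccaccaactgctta

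**Figure D1:**
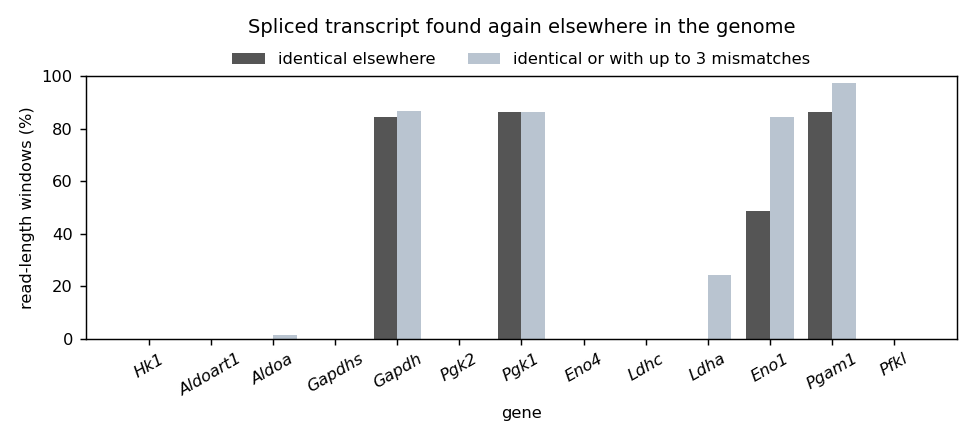
Share of read-length windows of each spliced transcript (y axis, percent) that occur again elsewhere in mm10, identically (dark bars) or with up to 3 mismatches (light bars), for the 10 genes and for Eno1, Pgam1 and Pfkl. Gapdh, Pgk1 and Pgam1 stand at 84.5%, 86.3% and 86.5% identical windows and Eno1 at 48.8%, while the germ-cell isoforms stand at 0%.

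Total counts per library were 22023925 to 31340090 in input, 14647542 to 18786779 in IgG and 16025779 to 18639134 in acRIP. In IgG and acRIP the gene with the most counts was CT010467.1. It took 5.14% to 5.57% of the counts in IgG and 9.35% to 10.6% in acRIP. FPKM is scaled to these totals, so this share lowers the FPKM of all other genes there. The fold changes below used TMM scaling instead. The libraries carried testis markers. The summed level of 6 spermatid markers was 17230 to 19556 CPM (counts scaled to the library size) in input, 20134 to 20783 in IgG and 20538 to 22418 in acRIP. That of 5 spermatocyte markers was 558 to 576 CPM in input, 604 to 647 in IgG and 493 to 515 in acRIP. No gene of these lists was called between groups by edgeR or DESeq2. At an unadjusted p under 0.05 of any size, 4 spermatid markers lay above their IgG level in acRIP and 1 below it. The 5 spermatocyte markers all lay below it. Both lists gave the same counts at an adjusted p under 0.05. At that limit 26.4% of all tested genes lay above their IgG level and 37.6% below it. Sertoli and Leydig markers summed to less than the spermatid list and to more than the spermatocyte list in every library. Over all libraries the sums were 841 to 1041 CPM for 6 Sertoli markers and 804 to 993 CPM for 5 Leydig markers. Of the Sertoli markers, Rhox5 was at 0 in every library. The 5 blood markers, which include the β-globin genes that the added probe resembles, summed to 151 to 155 CPM in input, 201 to 215 in IgG and 709 to 934 in acRIP. Between acRIP and IgG the list did not move as a whole. There only Hbb-bs was called higher and Alas2 lower (11.5% and 20.9% of all tested genes), with a median log2 fold change of -0.003. Over input most of the list lay higher. In acRIP over input, Hba-a1, Hba-a2, Hbb-bs and Hbb-bt were called higher and Alas2 lower, with a median log2 fold change of 1.35. In IgG over input, Hba-a1 and Hba-a2 were called higher and no gene lower, with a median of 0.997. What these differences contribute to the values below was not tested.

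Levels of the 10 mRNAs were compared in input on the FPKM scale (counts scaled to the kilobases of merged exons and to the library total). Ldhc, the sperm lactate dehydrogenase, was the gene with the most counts of the whole table in all 3 input libraries and took 0.842% to 0.857% of them. Its FPKM was 5382 ± 49.3 (SD, n = 3). Pgk2, a phosphoglycerate kinase of late spermatogenesis, followed with 845 ± 10.6, and Ldha, the somatic lactate dehydrogenase, with 640 ± 20.1. Aldoa was at 109 ± 1.33, Hk1 at 103 ± 1.85, Aldoart1 at 80.9 ± 3.48, Gapdhs at 64.3 ± 4.29 and Eno4 at 21.6 ± 1.22. Pgk1 and Gapdh, the genes with identical copies elsewhere, were lowest at 1.56 ± 0.360 and 0.276 ± 0.141. No neighbours in this order overlapped between their libraries. The order itself depended on the length used. With the length of the principal spliced transcript in place of the merged exons, Ldha (1200 ± 37.7) stood above Pgk2 (845 ± 10.6) and Hk1 (228 ± 4.10) above Aldoa (204 ± 2.50), an alternative chosen after the data were seen.

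In the precipitates the order was nearly that of input, with Gapdhs as the exception. In IgG, Gapdhs moved from place 7 to place 4, and Ldha (663 ± 13.7 FPKM) stood above Pgk2 (582 ± 10.3). In acRIP, Gapdhs was again at place 4, with 310 ± 11.9 FPKM. Pgk2 (522 ± 24.1) and Ldha (505 ± 33.4) overlapped between their acRIP libraries, as did Aldoart1 (62.8 ± 6.11) and Hk1 (61.1 ± 1.73).

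**Figure D2:**
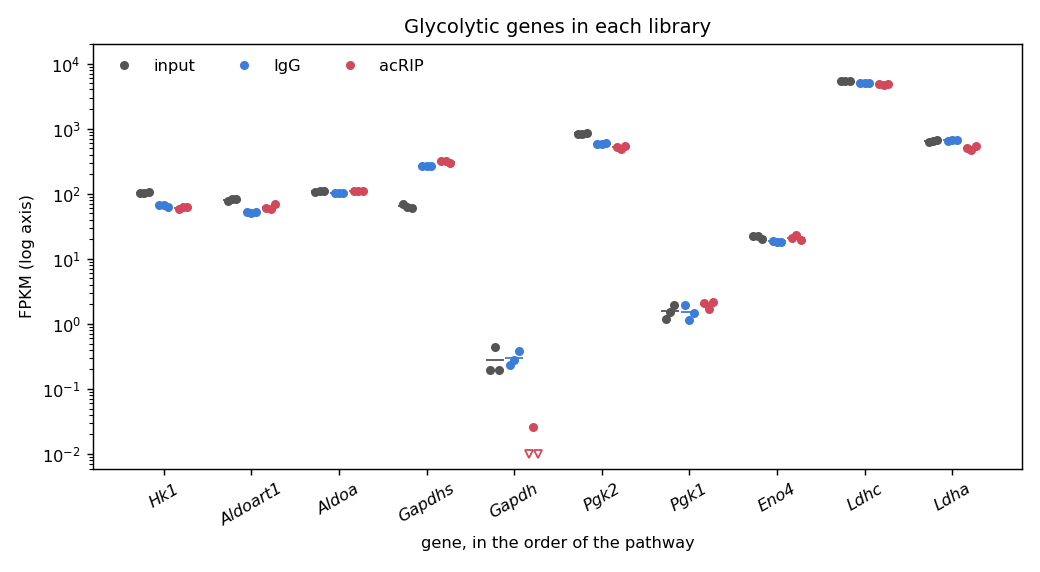
FPKM of the 10 genes (x axis, in the order of the pathway) in each library, on a log axis. Filled points are libraries, short lines are group means, and the open triangles at the bottom mark 2 acRIP libraries with no Gapdh count. Ldhc lies highest in every library, and Gapdhs lies near 64.3 in input and between 266 and 317 in both precipitates.

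The 10 genes were tested in a single edgeR fit of 22510 genes, and a gene was called when its adjusted p was under 0.05 and it differed by more than 2-fold. All 10 passed the filter on low counts. In acRIP over IgG, no member was called higher, where 11.5% of all tested genes were, and only Gapdh was called lower, where 20.9% were (32.4% in either direction). In acRIP over input, Gapdhs was called higher (17.7% of all genes) and Gapdh lower (22.9%, and 40.6% in either direction). In IgG over input, Gapdhs was called higher (13.5%) and no member lower (7.22%, and 20.7% in either direction). DESeq2 made the same calls among the members. At an unadjusted p under 0.05 of any size, 4 members lay above their IgG level in acRIP and 3 below it. Against input, 2 members lay above and 6 below in acRIP, and 2 above and 5 below in IgG. The counts were the same at an adjusted p under 0.05, for which the shares of all tested genes are given below. The median log2 fold change of the 10 genes was 0.07 over IgG and -0.18 over input in acRIP, and -0.07 in IgG over input, against -0.09, -0.10 and -0.01 over all tested genes. Each pair of comparisons shares a group of libraries, so they are not independent of each other.

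Smaller differences passed the adjusted p without reaching 2-fold. At an adjusted p under 0.05 of any size, 4 of the 10 genes lay above their IgG level in acRIP (26.4% of all tested genes) and 3 lay below it (37.6%). In acRIP over input, 2 lay higher (32.0%) and 6 lower (40.3%), and in IgG over input 2 lay higher (25.9%) and 5 lower (26.0%). In acRIP over IgG these were 3 higher and 1 lower of the 5 germ-cell isoforms, and 1 higher and 2 lower of the 4 somatic partners. Under the alternatives the counts ran from 3 to 4 higher and 2 to 4 lower in acRIP over IgG, 1 to 2 higher and 6 lower in acRIP over input, and 1 to 2 higher and 3 to 6 lower in IgG over input. Pgk2 and Eno4 in acRIP over IgG no longer passed without acRIP replicate 2 (adjusted p = 0.0655 and 0.0600 from edgeR).

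**Figure D3:**
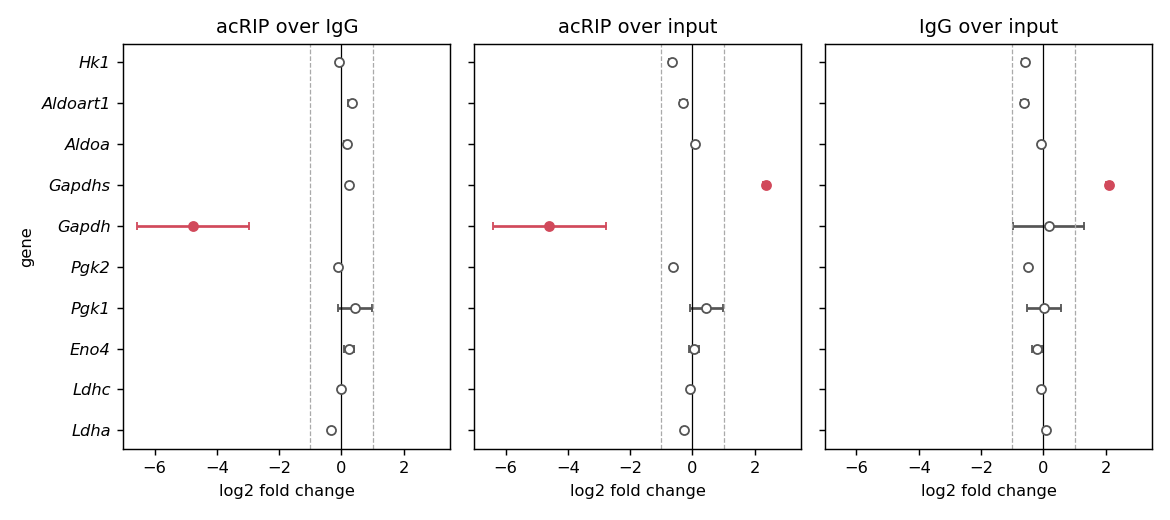
Log2 fold change (x axis) of each gene in the 3 comparisons, with the 95% interval as a bar. Red filled points passed both limits, open points did not, and dashed lines mark a fold change of 2. Gapdhs stands at 2.35 and 2.09 over input and at 0.25 between both precipitates, and the fitted values of Gapdh rest on 0, 2 and 0 acRIP counts.

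Hk1, hexokinase 1, phosphorylates glucose at the entry to the pathway. Its transcripts in germ cells differ from those of somatic cells at the 5′ end, which counts per gene do not separate. Hk1 (ENSMUSG00000037012.18, chromosome 10, 62268855 to 62379908, minus strand) showed an FPKM of 102, 102 and 105 in the input libraries, 68.1, 67.4 and 63.6 in the IgG libraries and 59.1, 61.6 and 62.4 in the acRIP libraries. Both precipitates lay below every input library, and they overlapped each other after scaling to library size. The log2 fold change was -0.67 in acRIP over input (SE 0.04, adjusted p = 3.45e-17 from edgeR) and -0.60 in IgG over input (SE 0.04, adjusted p = 8.39e-16), below 2-fold in size. Between acRIP and IgG it was -0.07 (95% interval -0.14 to 0.0019, adjusted p = 0.0826).

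Aldolase cleaves fructose bisphosphate. Aldoart1, an intronless copy of Aldoa (ENSMUSG00000059343.4, chromosome 4, 72850583 to 72852634, minus strand), showed an FPKM of 77.1, 81.7 and 83.9 in input, 52.8, 50.4 and 52.2 in IgG and 61.4, 57.5 and 69.5 in acRIP. The groups did not overlap, with input highest and IgG lowest. Its log2 fold change was -0.61 in IgG over input (SE 0.06, adjusted p = 3.9e-11 from edgeR), -0.29 in acRIP over input (SE 0.06, adjusted p = 3.13e-05) and 0.33 in acRIP over IgG (SE 0.06, adjusted p = 1.07e-05), all below 2-fold.

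Aldoa (ENSMUSG00000030695.16, chromosome 7, 126795234 to 126800751, minus strand) varied less. Its FPKM was 107, 109 and 110 in input, 101 in each IgG library and 109, 112 and 109 in acRIP. The log2 fold change was 0.17 in acRIP over IgG (SE 0.04, adjusted p = 3.50e-04 from edgeR), 0.10 in acRIP over input (SE 0.04) and -0.07 in IgG over input (SE 0.04, adjusted p = 0.108). A second identifier of the same name, just upstream, held 0.818% to 4.02% of the counts of both and was left out.

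The germ-cell isoform was thus the lower of this pair. The log2 ratio of FPKM, Aldoart1 over Aldoa, was -0.43 ± 0.05 (SD, n = 3) in input, -0.96 ± 0.04 in IgG and -0.81 ± 0.16 in acRIP. With the lengths of the principal transcripts (2050 and 1549 bases) it was -1.33, -1.87 and -1.72. The precipitates overlapped each other and both lay below input, by 0.54 in IgG and 0.38 in acRIP. A second aldolase retrogene, Aldoart2, stood at 226 ± 3.69 FPKM in input, 177 ± 3.85 in IgG and 183 ± 3.65 in acRIP, above both on this scale. With principal transcript lengths Aldoa (204 ± 2.50, 190 ± 0.0490 and 206 ± 3.31) stood above Aldoart2 in IgG and acRIP, and Aldoart2 above Aldoa in input only. Its log2 fold change was 0.10 in acRIP over IgG (SE 0.04).

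Glyceraldehyde-3-phosphate dehydrogenase takes the next step, and its sperm isoform Gapdhs is bound to the fibrous sheath of the sperm tail. Gapdhs (ENSMUSG00000061099.12, chromosome 7, 30729775 to 30743681, minus strand) showed an FPKM of 69.2, 62.3 and 61.3 in the input libraries. It had 269, 266 and 271 in the IgG libraries and 316, 317 and 296 in the acRIP libraries. Every precipitated library lay far above every input library, and the acRIP libraries lay above the IgG libraries without overlap.

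Gapdhs rose 5.08-fold in acRIP over input (log2 fold change 2.35, SE 0.05, adjusted p = 1.73e-28 from edgeR) and 4.27-fold in IgG over input (2.09, SE 0.05, adjusted p = 3.21e-27). Between acRIP and IgG the difference was 1.19-fold (0.25, SE 0.04, adjusted p = 1.12e-05), under the limit for a call. Most of the rise over input was therefore present in the control precipitate as well. In the gene annotation, 162 of its 1610 exon bases (10.1%) are shared with the antisense gene Tmem147os, which had 27 to 43 counts in any library, against 2191 to 9522 for Gapdhs.

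Gapdh (ENSMUSG00000057666.18, chromosome 6, 125161715 to 125166467, minus strand), the somatic enzyme and a common reference gene, had few counts in every library. They were 25, 40 and 18 in input, 14, 22 and 30 in IgG and 0, 2 and 0 in acRIP. The acRIP libraries lay below all others, and input and IgG overlapped. Fewer genes had any count in acRIP (22206 to 22402 per library) than in IgG (26204 to 26874) or input (28552 to 29642). What this contributes to the Gapdh counts was not tested. Summed over the libraries of a group, Gapdh had 66 counts in IgG and 83 in input against 2 in acRIP. Scaled to library size, that is a ratio of 31.5 for IgG over acRIP (exact 95% counting interval 8.39 to 266). For input over acRIP the ratio was 26.7 (7.17 to 224). Of the low counts (1 to 20) in each library, 81.9% to 84.3% were even. Counting of both mates would give such even values, and with counts halved to pairs the lower ends of the intervals become 5.28 and 4.48. These intervals cover counting error only, as amplified reads are not independent molecules. The edgeR fit gave Gapdh a log2 fold change of -4.77 in acRIP over IgG (95% interval -6.57 to -2.96, adjusted p = 2.60e-05). In acRIP over input it was -4.59 (-6.40 to -2.79, adjusted p = 3.00e-05). In the same fit, IgG and input differed by 0.17 on the log2 scale (95% interval -0.96 to 1.31, adjusted p = 0.819).

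Copies of Gapdh were counted beside it. At 43 places of mm10, at least 90% of the Gapdh coding sequence was found with at least 95% identity, and 42 annotated pseudogenes of the count table lie at such places. Their summed counts were 896, 759 and 692 in input, 319, 371 and 375 in IgG and 233, 280 and 314 in acRIP, above those of Gapdh itself in all 9 libraries. On the CPM scale this was 28.0 to 33.6 in input, 19.7 to 21.7 in IgG and 15.0 to 19.1 in acRIP, with no overlap between the groups. How many of these reads came from Gapdh mRNA was not tested. Exons of Iffo1 on the other strand share 68 of the 4133 exon bases of Gapdh (1.65%). Iffo1 had 571 to 838 counts in input, 454 to 663 in IgG and 228 to 301 in acRIP, above those of Gapdh in every library. How many of the Gapdh counts lie in the shared bases was not tested.

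The log2 ratio of FPKM, Gapdhs over Gapdh, was 7.94 ± 0.71 (SD, n = 3) in input and 9.80 ± 0.36 in IgG. In acRIP replicates 1 and 3, with no Gapdh count, only a lower bound can be given. A count of 0 allows up to 3 counts. On merged exon lengths, the unique counts of Gapdhs were then at least 6966 and 6839 times as high, or 3483 and 3419 times against 3 read pairs. In acRIP replicate 2, with 2 Gapdh counts, the ratio was 12222 (exact 95% counting interval 3383 to 100920). With the principal transcripts (1457 and 1420 bases in place of 1610 and 4133) the log2 ratio was 6.55 in input and 8.40 in IgG. These lengths would lower the acRIP ratio and bounds as well. Since 84.5% of the Gapdh windows have an identical copy elsewhere, none of these values is a ratio of mRNA.

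Phosphoglycerate kinase makes the first ATP of the pathway. Pgk2 (ENSMUSG00000031233.6, chromosome 17, 40207015 to 40208640, minus strand) showed an FPKM of 841, 838 and 858 in input, 572, 581 and 593 in IgG and 531, 495 and 541 in acRIP. Both precipitates lay below input, and acRIP below IgG. On the log2 scale Pgk2 differed by -0.62 in acRIP over input (SE 0.03, adjusted p = 3.98e-17 from edgeR), -0.51 in IgG over input (SE 0.03, adjusted p = 7.75e-15) and -0.11 in acRIP over IgG (SE 0.03, adjusted p = 0.00509), none of them 2-fold.

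Pgk1 (ENSMUSG00000062070.12, X chromosome, 106187100 to 106203699, plus strand) had 85, 76 and 96 counts in input, 65, 49 and 61 in IgG and 76, 70 and 83 in acRIP. Scaled to library size, the groups overlapped in every comparison. Pgk1 had a log2 fold change of 0.44 in acRIP over IgG (95% interval -0.11 to 0.99, adjusted p = 0.159 from edgeR), 0.44 in acRIP over input (-0.09 to 0.98, adjusted p = 0.131) and 0.01 in IgG over input (-0.54 to 0.55, adjusted p = 0.99). Both acRIP intervals hold 0 and come close to a 2-fold change at their upper end.

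The log2 ratio of FPKM, Pgk2 over Pgk1, was 9.10 ± 0.32 (SD, n = 3) in input, 8.59 ± 0.40 in IgG and 8.03 ± 0.15 in acRIP. Input and acRIP did not overlap, while IgG overlapped both. Since 86.3% of the Pgk1 windows have an identical copy elsewhere, none of these values is a ratio of mRNA. Pgk1 had 2 places with at least 90% of its coding sequence at 95% identity or more, and the pseudogenes of the table there held 0 to 6 counts per library. A read with several identical places is in neither count unless its mate gives a unique one.

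Enolase forms phosphoenolpyruvate, and Eno4 is the member of the family needed for the structure and movement of the sperm tail. Eno4 (ENSMUSG00000048029.10, chromosome 19, 58943425 to 58971421, plus strand) showed an FPKM of 22.3, 22.3 and 20.2 in input, 18.8, 18.3 and 18.3 in IgG and 21.0, 23.1 and 19.5 in acRIP. The IgG libraries were lowest, and acRIP overlapped input. Eno4 had a log2 fold change of 0.25 in acRIP over IgG (SE 0.08, adjusted p = 0.00565 from edgeR), -0.20 in IgG over input (SE 0.08, adjusted p = 0.0296) and 0.05 in acRIP over input (95% interval -0.10 to 0.21, adjusted p = 0.537). Exons of Hspa12a on the other strand share 166 of its 2570 bases, and that gene had 655 to 1362 counts per library against 709 to 1793 for Eno4. Eno1, the ubiquitous enolase, stood at 22.6 ± 1.09 FPKM in input, 19.2 ± 0.597 in IgG and 20.2 ± 1.12 in acRIP. This depended on the merged exon length, and with that of its principal transcript Eno1 stood at 59.8 ± 2.90, 50.8 ± 1.58 and 53.5 ± 2.98 FPKM, above Eno4. Since 48.8% of the Eno1 windows have an identical copy elsewhere, its level is uncertain too.

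Lactate dehydrogenase ends the pathway, and both of its isoforms among the members were abundant. None of their read-length windows had an identical copy elsewhere, but 24.1% of the Ldha windows had a copy with up to 3 mismatches. Ldhc (ENSMUSG00000030851.15, chromosome 7, 46861203 to 46878142, plus strand) showed an FPKM of 5329, 5392 and 5426 in input, 4994, 5026 and 5020 in IgG and 4797, 4643 and 4892 in acRIP. Per length it was highest in input, but after TMM scaling acRIP and IgG overlapped. Ldhc had a log2 fold change of -0.02 in acRIP over IgG (95% interval -0.06 to 0.02, adjusted p = 0.421 from edgeR), -0.09 in acRIP over input (SE 0.02, adjusted p = 3.46e-04) and -0.07 in IgG over input (SE 0.02, adjusted p = 0.00596).

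Ldha (ENSMUSG00000063229.15, chromosome 7, 46841475 to 46855627, plus strand) showed an FPKM of 619, 642 and 659 in input, 649, 665 and 676 in IgG and 501, 473 and 540 in acRIP. The acRIP libraries lay below all 6 others. Ldha had a log2 fold change of -0.34 in acRIP over IgG (SE 0.03, adjusted p = 3.27e-10 from edgeR), -0.26 in acRIP over input (SE 0.03, adjusted p = 2.67e-08) and 0.08 in IgG over input (SE 0.03, adjusted p = 0.0409, but 0.0754 by DESeq2 and below 0 with upper quartile scaling), all below 2-fold.

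The log2 ratio of FPKM, Ldhc over Ldha, was 3.07 ± 0.03 (SD, n = 3) in input, 2.92 ± 0.03 in IgG and 3.24 ± 0.06 in acRIP. The 3 groups did not overlap, and Ldhc was 8.41, 7.56 and 9.48 times as high per length as Ldha. With the principal transcripts (1370 and 1766 bases) it was 5.17, 4.65 and 5.83 times as high. The difference between acRIP and IgG was 0.33 on the log2 scale, or 1.25-fold.

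Differences of these ratios were compared for 4 pairs in 3 comparisons, 12 tests in all, by the exact two-sided permutation test over libraries. In 9 of the 12 the groups did not overlap and p was 0.1, the smallest that 3 libraries against 3 can give, with an adjusted p of 0.133. The other 3, with overlap between groups, were Pgk2 over Pgk1 in acRIP against IgG and in IgG against input (exact p = 0.2 each) and Aldoart1 over Aldoa in acRIP against IgG (exact p = 0.3). No difference of a ratio could therefore pass 0.05 by this test.

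**Figure D4:**
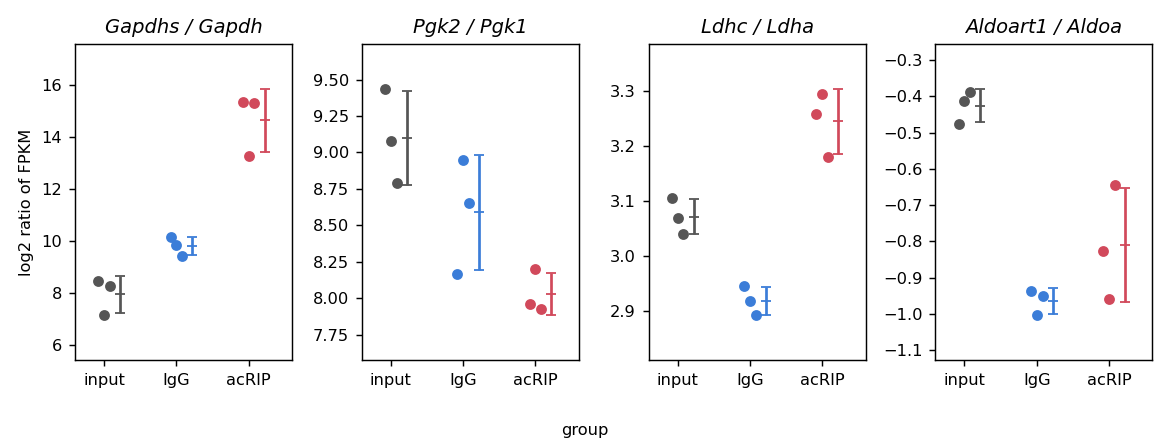
Log2 ratio of FPKM (y axis) of the germ-cell isoform over its somatic partner in each group (x axis). Points are libraries and the bar beside them is the mean with its SD, and each panel has its own scale. Ldhc over Ldha lies lowest in IgG (2.92) and highest in acRIP (3.24), Aldoart1 over Aldoa lies below 0 in every library, and the acRIP points of Gapdhs over Gapdh rest on 0.5 added to counts of 0, 2 and 0.

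A list of 32 genes of glycolysis set the members beside other enzymes of the pathway. Outside the members 22 genes were listed and 17 were tested. In acRIP over IgG, none of these 17 was called higher by edgeR, against 1 by DESeq2 (Hk3) and 7 at an unadjusted p under 0.05, and 2 were called lower. In acRIP over input, 1 was called higher and 2 lower, beside Eno2, which DESeq2 called lower and edgeR did not test. In IgG over input none was called higher (0 by DESeq2, and 4 at an unadjusted p under 0.05) and 1 lower. The median log2 fold change of the 17 genes was -0.10 in acRIP over IgG, -0.22 in acRIP over input and -0.12 in IgG over input. Their calls in acRIP over IgG were 11.8% of those tested, in either direction, against 32.4% of all tested genes. The shares were 17.6% against 40.6% in acRIP over input and 5.88% against 20.7% in IgG over input.

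Pfkl, the liver form of phosphofructokinase, which commits sugar to the pathway, was called lower in acRIP. It had 416, 316 and 291 counts in input, 184, 182 and 192 in IgG and only 14, 16 and 14 in acRIP. Its log2 fold change was -3.60 in acRIP over IgG (SE 0.23, adjusted p = 3.95e-14 from edgeR) and -3.90 in acRIP over input (SE 0.22, adjusted p = 2.54e-16). None of the read-length windows of Pfkl had an identical copy elsewhere.

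Pgam1, the phosphoglycerate mutase after Pgk2 in the pathway, had 332, 235 and 246 counts in input, 159, 180 and 182 in IgG and 58, 52 and 68 in acRIP. The acRIP libraries lay lowest. Pgam1 had a log2 fold change of -1.48 in acRIP over IgG (SE 0.19, adjusted p = 6.82e-08 from edgeR) and -1.55 in acRIP over input (SE 0.19, adjusted p = 9.31e-09). Like Gapdh, it has copies elsewhere in the genome, with 86.5% of its windows found again identically. At places with at least 90% of its coding sequence at 95% identity or more lie 2 annotated pseudogenes. They had 262, 250 and 195 counts in input, 64, 88 and 80 in IgG and 32, 60 and 46 in acRIP. The counts of Pgam1 and its call are therefore uncertain too.

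Pgam2, the phosphoglycerate mutase of muscle, was the most abundant gene of the list outside the members, at 1245 ± 17.2 FPKM in input, 1418 ± 39.4 in IgG and 1576 ± 22.5 in acRIP. Pgam2 had a log2 fold change of 0.20 in acRIP over IgG (SE 0.03) and 0.42 in acRIP over input (SE 0.03). Ldhb, the lactate dehydrogenase subunit of heart, stood at 49.9 ± 1.98 FPKM in input, 51.5 ± 2.69 in IgG and 33.8 ± 1.87 in acRIP, with a log2 fold change of -0.56 in acRIP over IgG (SE 0.07). Bpgm, bisphosphoglycerate mutase, had a log2 fold change of -0.41 in acRIP over IgG (SE 0.05) and -0.62 in acRIP over input (SE 0.05). None of these reached 2-fold.

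Among the other enzymes, Tpi1, triosephosphate isomerase, stood at 171 ± 3.90 FPKM in input and 181 ± 6.94 in acRIP, and its log2 fold change was 0.27 in acRIP over IgG (SE 0.04). Pkm, pyruvate kinase, stood at 41.6 ± 1.43 FPKM in input and 29.2 ± 0.407 in acRIP, and its log2 fold change was -0.23 in acRIP over IgG (SE 0.05). Hk2, the hexokinase of muscle, had a log2 fold change of -0.40 in acRIP over IgG (SE 0.14). The same value was -0.62 for Eno3 (SE 0.09), the third lowest of the tested genes of the list outside the members, 0.98 for Hk3 (SE 0.42) and 0.48 for Aldoc (SE 0.15), and none of these was called there. Aldoc was called higher in acRIP over input (1.05, SE 0.15) and Hk3 lower in IgG over input (-1.16, SE 0.41), on 8 to 20 counts per IgG library. The call of Aldoc was lost without input replicate 1 or 2, and that of Hk3 without input replicate 1 or IgG replicate 1.

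**Figure D5:**
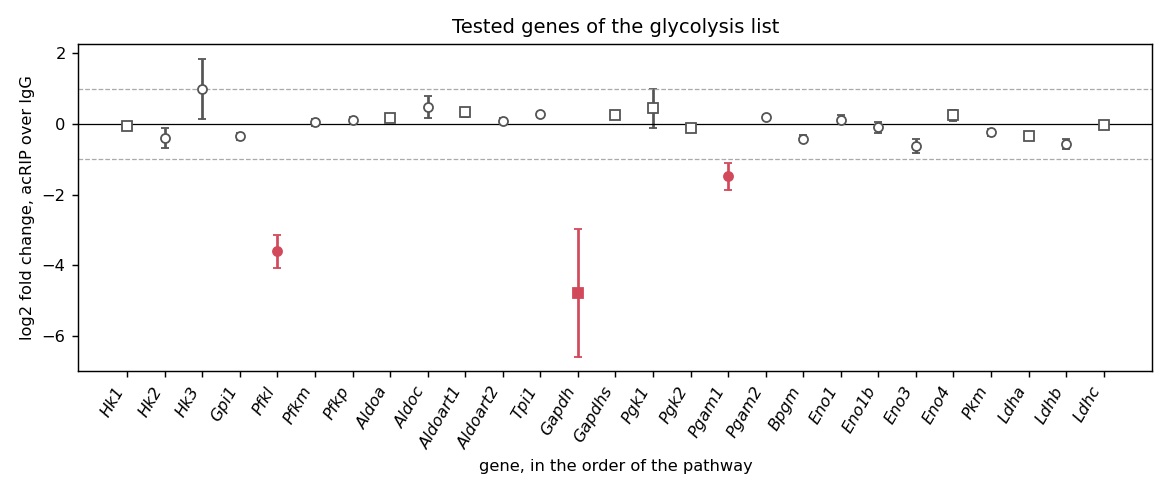
Log2 fold change of acRIP over IgG (y axis) for the 27 tested genes of the glycolysis list (x axis, in the order of the pathway), with the 95% interval as a bar. Squares are the 10 members and circles the other genes, and red filled symbols passed both limits. Pfkl, Gapdh and Pgam1 lie below the lower dashed line, and no gene lies above the upper one.

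Of 11 carriers of sugar and lactate and their partner proteins, 10 were tested and none was called in acRIP over IgG by edgeR or DESeq2 (2 higher and 6 lower at an unadjusted p under 0.05), where 32.4% of all tested genes were. Over input, Slc16a3, an exporter of lactate, was called higher and Slc16a7, a lactate and pyruvate carrier, lower, and both calls were made in acRIP and in IgG. These 2 of 10 carriers are 20%, against 40.6% of all tested genes in acRIP over input and 20.7% in IgG over input. Slc16a3 had 171, 112 and 168 counts in input, 425, 514 and 526 in IgG and 524, 676 and 511 in acRIP, with input lowest. Slc16a3 had a log2 fold change of 2.54 in acRIP over input (SE 0.13, adjusted p = 1.2e-17 from edgeR) and 2.26 in IgG over input (SE 0.13, adjusted p = 4.11e-16), beside 0.28 in acRIP over IgG (SE 0.12). As with Gapdhs, the difference between both precipitates was far smaller than that of either from input. For Slc16a7 the log2 fold change was -1.51 in acRIP over input (SE 0.04) and -1.27 in IgG over input (SE 0.04).

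The genes whose profile over the 9 libraries came closest to that of the germ-cell isoforms were named by the distance between centred log2 CPM values, among 8973 protein-coding genes. They were Cwc15 (distance 0.0390), Gsg1 (0.0908), Rps27l (0.0932), Pttg1ip (0.0979) and Tbca (0.105). For the mean profile of the 4 somatic partners, in which Gapdh has its low acRIP counts, the closest were 3110082I17Rik (0.301), Psmd1 (0.317), Manbal (0.319), Rsrc1 (0.324) and Tcea1 (0.325). The mean of the germ-cell isoforms is itself a mixture, since Gapdhs lay higher over input and the others lay at or below input.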

How the data were processed

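Counts of the 9 testis libraries were analysed. The authors trimmed the reads with Trim Galore 0.6.7, mapped them to mm10 with STAR 2.7.10a, used featureCounts 2.0.2 to count the reads that mapped uniquely, and deposited these counts without normalization. Their annotation release, their use of strand and the counting of reads or of pairs are not given in the sources used here. Groups came from the sample labels. Of the 55401 identifiers, 55141 were named by GENCODE vM21, in which all 10 members have the same coordinates. The members, the gene lists and the tests were chosen with earlier results of these data known.

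Counts were fitted with edgeR 4.0.16 (R 4.3.3) over all 9 libraries, with 1 mean per group, filterByExpr, TMM and the quasi-likelihood test, and p-values were adjusted by Benjamini-Hochberg over 22510 genes. Intervals of fold changes used the t distribution with the degrees of freedom of that fit. A count of 0 was taken to allow 3 counts. FPKM used the deposited merged exon length and the total count, and ratios of isoforms had 0.5 added to each count and were compared by an exact two-sided permutation test. Transcripts were the principal protein-coding ones of vM21, searched in mm10 with blastn 2.17.0 and by exact matching in Python 3.11.15, with Biopython 1.88 for alignments. The edgeR and DESeq2 1.42.0 steps were checked on simulated counts. One gene of the pathway is not reported here and was left out of the glycolysis list. Besides the members, named genes were the 3 highest and 3 lowest of the glycolysis list in acRIP over IgG, 6 enzymes set by name, and the 5 nearest profiles. Aldoc and Hk3 in other comparisons, Pgam2, Ldhb, Bpgm, Eno2 and the carriers Slc16a3 and Slc16a7 were named after their values were seen. Alternatives were other normalizations, no filter, DESeq2, a test against a 2-fold change, only the 6 libraries compared, a replicate block, halved counts, each library left out, other pseudocounts and other lengths.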

Additional observations from a re-analysis of the deposited data

How the results depend on the processing

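The members called were the same genes under all alternatives run: Gapdhs higher over input in acRIP and IgG, and Gapdh lower in acRIP over both. Of 510 log2 fold changes of members under alternatives, 494 kept their direction and their side of both limits together (adjusted p and 2-fold), and the 16 that changed sign were not called in either setting. The adjusted p alone crossed 0.05 more often. Pgk2 in acRIP over IgG was at 0.115 with upper quartile scaling and 0.0521 with only the 6 libraries. Aldoa in acRIP over input was at 0.289 with upper quartile scaling, 0.0562 without the filter and 0.0567, 0.0850 and 0.0733 without input replicate 1, input replicate 2 or acRIP replicate 2. In IgG over input, Ldha lost it with RLE, upper quartile scaling, no filter or DESeq2 and when any of 4 single libraries was left out, Eno4 when any of 5 was, and Ldhc without IgG replicate 1 (0.0606), while Aldoa passed with upper quartile scaling (4.15e-04) and without the filter (0.0498), and Hk1 in acRIP over IgG passed without IgG replicate 3 (0.0225). In acRIP over IgG, Ldhc was at 0.0015 with RLE size factors, 0.0010 with DESeq2, 0.028 with upper quartile scaling, 0.0077 without the filter and 0.0062 with only the 6 libraries. In IgG over input, Pgk1 was at -0.091 with upper quartile scaling, -0.022 without the filter and -0.0024 with halved counts, and Ldha at -0.017 with upper quartile scaling. With 1 library left out, Eno4 in acRIP over input ranged from -0.012 to 0.13, Gapdh in IgG over input from -0.051 to 0.66 and Pgk1 in IgG over input from -0.19 to 0.19. The sign of Eno4 changed without acRIP replicate 2. The cause was not tested for any of these.

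Of the glycolysis list, 1 gene (Hk3) in place of 0 was higher in acRIP over IgG with RLE, upper quartile scaling, no filter or DESeq2, and 0 to 1 with a library left out. Against a 2-fold change, 1 gene in place of 2 was higher in acRIP over input (Gapdhs) and 0 in place of 1 lower in IgG over input. With a library left out, acRIP over input gave 1 to 2 higher, and IgG over input 1 to 2 higher and 0 to 1 lower.

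Without a length correction the log2 ratios in input, IgG and acRIP were 6.58, 8.44 and 13.28 for Gapdhs over Gapdh, 8.64, 8.12 and 7.57 for Pgk2 over Pgk1, 2.00, 1.85 and 2.18 for Ldhc over Ldha, and -0.93, -1.47 and -1.31 for Aldoart1 over Aldoa. With principal transcript lengths, chosen after seeing the data, they were 6.55, 8.40 and 13.25, 8.80, 8.29 and 7.73, 2.37, 2.22 and 2.54, and -1.33, -1.87 and -1.72. With 3 counts added, Gapdhs over Gapdh was 12.59 in acRIP. These moves follow from the lengths or the added counts themselves, and the acRIP values of Gapdhs over Gapdh are set by the added count and are no measured ratios. The replicate block changed no call among the members, with 1 higher and 1 lower in acRIP over input and Gapdhs at 2.35. Same-numbered libraries did not deviate together (correlations of -0.01 to 0.04), so no pairing by number was seen. These correlations cannot exclude a pairing, since noise within libraries can hide a shared source. Low counts limit Gapdh and Pgk1 most.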
